A study of Homo sapiens with 8 samples.

Results

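The genes described here are 43 antiviral effectors of the interferon response, the proteins that an infected or interferon-treated cell makes to block viral entry, copying and translation. They were followed in NB4, a line of human promyelocytic leukaemia cells that carries the PML-RARA fusion, infected with lentivirus at a multiplicity of 10. Members were listed by gene symbol, and each gene was read from the brightest of the Affymetrix probe sets annotated to that gene alone, by its mean over the 8 arrays. Of the 43 genes, 42 had such a probe set, out of 18132 genes on the array. Of these, 36 passed a filter on dim genes, a mean above 5.83 log2, and were tested. That mean takes in the shCDK2 #10 arrays, so high values there could carry a gene past the filter or decide which probe set stood for it. USP18, the protease that removes ISG15 from proteins, had only a probe set shared with other annotated genes and was not analysed here.

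Cells carried 1 of 3 hairpins against CDK2, shCDK2 #10, shCDK2 #3 or shCDK2 #1, or a scrambled control hairpin (scramble), and were sampled at day 2 or day 5, which the submitters call early and late stages of differentiation. There was 1 array per construct and day, so each group of hairpins held 3 arrays of 3 different constructs and each day had a lone scramble array. All groups, scramble included, are lentivirus-transduced pools, and no untransduced NB4 array was analysed here. The series asks how CDK2 depletion acts on a myeloid line undergoing differentiation.

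Type I interferons bind the receptor pair IFNAR1 and IFNAR2, the kinases JAK1 and TYK2 pass the signal on, and a complex that holds IRF9 binds the interferon-stimulated response element (ISRE) in promoters of the effector genes. Interferon gamma acts through IFNGR1 and IFNGR2 on a different element, the gamma-activated site (GAS). The effectors fall into families that do different work. IFIT proteins hold foreign RNA, OAS enzymes sense double-stranded RNA and make a second messenger, MX proteins are GTPases that trap viral particles, IFITM proteins block membrane fusion, GBPs are interferon-induced GTPases, and ISG15 is a ubiquitin-like protein joined to targets by UBE2L6 and HERC5.

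The arrays had medians between 6.30 and 6.43 log2. CDK2, the targeted gene, stood at 7.54 log2 at day 2 and 8.08 log2 at day 5 in the arrays labelled shCDK2 #10, at 9.03 and 7.72 log2 in those labelled shCDK2 #3 and at 7.78 and 7.89 log2 in those labelled shCDK2 #1, against 9.10 and 8.19 log2 in those labelled scramble. The array labelled shCDK2 #3 at day 2 thus held nearly as much CDK2 signal as scramble of that day, and the array labelled scramble at day 5 hardly more than shCDK2 #10. Arrays are therefore named by their labels, and every direction below rests on those labels. The promyelocyte marker MPO stood between 13.37 and 14.40 log2 in the 8 arrays and MYB between 10.22 and 11.62 log2, while ELANE stayed between 5.83 and 6.35 log2, close to the dim limit. Of the 6 promyelocyte markers none passed in shCDK2 #10 against scramble, but they were not all level. PRTN3 stood at 9.99 and 9.76 log2 in the arrays labelled shCDK2 #10, against 11.18 and 10.76 log2 in those labelled scramble (log2 change -1.10, SE 0.22, limma adjusted p = 0.0564). CTSG stood at 8.02 and 8.04 log2, against 9.29 and 7.97 log2, and AZU1 at 10.50 and 8.39 log2, against 9.28 and 8.83 log2. Among the 4 T cell markers on the list, CD3D was higher in shCDK2 #10 than in scramble (log2 change 2.25, SE 0.20, limma adjusted p = 0.0133), at 11.27 and 10.85 log2 against 8.81 and 8.82 log2, while CD3E, CD2 and LCK stayed between 5.49 and 6.37 log2 in all 8 arrays. Of the markers of plasmacytoid dendritic cells, which make interferon in blood, CLEC4C stayed between 4.04 and 4.37 log2 and TCF4 between 4.78 and 5.28 log2, while IL3RA stood at 9.06 and 9.91 log2 in the arrays labelled shCDK2 #10, at 6.66 and 9.33 log2 in those labelled shCDK2 #3 and at 6.75 and 6.26 log2 in those labelled shCDK2 #1, against 6.60 and 7.22 log2 in those labelled scramble. The part of such cells, or of these marker differences, in the results was not tested.

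Promoters of the members show the element the family is known for. The RefSeq promoter table (GRCh38.p14, 250 bases before to 50 after each start) held 35 of the 42 measured members. IFIT2, OAS2, OASL, MX2, IFITM2, GBP2 and TRIM22 had no entry. The ISRE core was searched as GAAANNGAAA on both strands, and 26 of 35 members had it in at least 1 window, against 4.38% of 27305 genes in the table. By window, it was in 31 of the 49 member windows and in 3.57% of all 35116 windows. The GAS core, TTCNNNGAA, which reads the same on both strands, was in a window of 10 of 35 members, against 9.38% of all genes, and in 6 member windows an ISRE core and a GAS core overlapped. A match here is a run of letters in a fixed window, not a tested site.

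The window of IFIT1 is shown because IFIT1 had the highest signal difference of all members, that of MX1 because its element is present while its probe set was dim in every array, and that of UBE2L6 because this gene had the lowest adjusted p of the members and no ISRE core in either of its windows. Capitals mark ISRE cores, read as GAAANNGAAA or, on the opposite strand, as TTTCNNTTTC. The shorter stretches, cores with 15 bases on each side, are those of the other called members with a match, SHFL, BST2 and DTX3L. The windows run 5′ to 3′ on the strand of the gene at chr10:89392373-89392672 (plus strand, IFIT1), chr21:41420308-41420607 (plus, MX1) and chr11:57567886-57568185 (minus, UBE2L6). The stretches lie at chr19:10086259-10086298 (plus, SHFL), chr19:17405730-17405775 (minus, BST2) and chr3:122564317-122564356 (plus, DTX3L).
IFIT1: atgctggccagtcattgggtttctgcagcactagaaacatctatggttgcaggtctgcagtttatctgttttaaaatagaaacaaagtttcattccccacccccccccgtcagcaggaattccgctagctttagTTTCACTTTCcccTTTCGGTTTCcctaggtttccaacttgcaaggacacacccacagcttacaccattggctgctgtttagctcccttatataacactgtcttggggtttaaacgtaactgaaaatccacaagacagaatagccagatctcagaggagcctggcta
MX1: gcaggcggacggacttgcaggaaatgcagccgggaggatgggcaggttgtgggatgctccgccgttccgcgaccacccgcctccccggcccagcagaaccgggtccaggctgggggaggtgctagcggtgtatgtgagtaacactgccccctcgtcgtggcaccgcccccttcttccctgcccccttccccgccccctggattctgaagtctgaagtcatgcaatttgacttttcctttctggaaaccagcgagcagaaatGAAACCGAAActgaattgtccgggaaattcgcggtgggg
UBE2L6: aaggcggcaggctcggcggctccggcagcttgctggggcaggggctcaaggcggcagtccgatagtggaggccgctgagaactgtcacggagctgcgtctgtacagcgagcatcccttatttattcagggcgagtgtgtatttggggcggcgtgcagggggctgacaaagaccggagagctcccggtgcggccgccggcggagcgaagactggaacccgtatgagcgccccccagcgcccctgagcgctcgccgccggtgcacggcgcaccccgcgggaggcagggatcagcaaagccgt
SHFL: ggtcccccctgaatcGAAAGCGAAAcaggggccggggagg
BST2: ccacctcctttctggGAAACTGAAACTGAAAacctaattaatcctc
DTX3L: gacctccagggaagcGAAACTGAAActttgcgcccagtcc
Counted from the start of transcription at 0, the pair of cores in IFIT1 begins at -116 and -103, both read on the opposite strand, and the overlapping pair in BST2 at -130 and -124. The single cores begin at -43 in SHFL, at -6 in DTX3L and at 11 in MX1. DTX3L and PARP9 are divergent neighbours on chromosome 3, and the core at chr3:122564332-122564341 is shared by a window of each. The fifth called member, IFI16, had no ISRE core in either of its 2 windows. At day 5 the members with a core had a median difference of 2.56 log2 between shCDK2 #10 and scramble, and the 9 without one a median of 2.19 log2, given as a description only. The 9 include members with the closer spacing, so this does not part genes with the element from genes without it.

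Over both days, the effectors stood highest in shCDK2 #10. Of 42 measured members, 38 peaked in shCDK2 #10 at day 5, which was the highest array for 8.94% of all genes. GBP2 was highest in shCDK2 #10 at day 2, MX1 in that labelled shCDK2 #3 at day 2, and OAS3 and EPSTI1 in the array labelled scramble at day 5. Both arrays labelled shCDK2 #10 lay above both labelled scramble for 32 members (17.4% of all genes), both labelled shCDK2 #3 for 19 (13.3%) and both labelled shCDK2 #1 for 7 (13.4%). For shCDK2 #1 the count is thus near what all genes gave. Where both scramble arrays lay below the dim limit, as for 8 members, a log2 difference may understate the change. In RNA of whole cultures, more cells expressing a gene and more RNA per cell cannot be told apart.

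**Figure D1:**
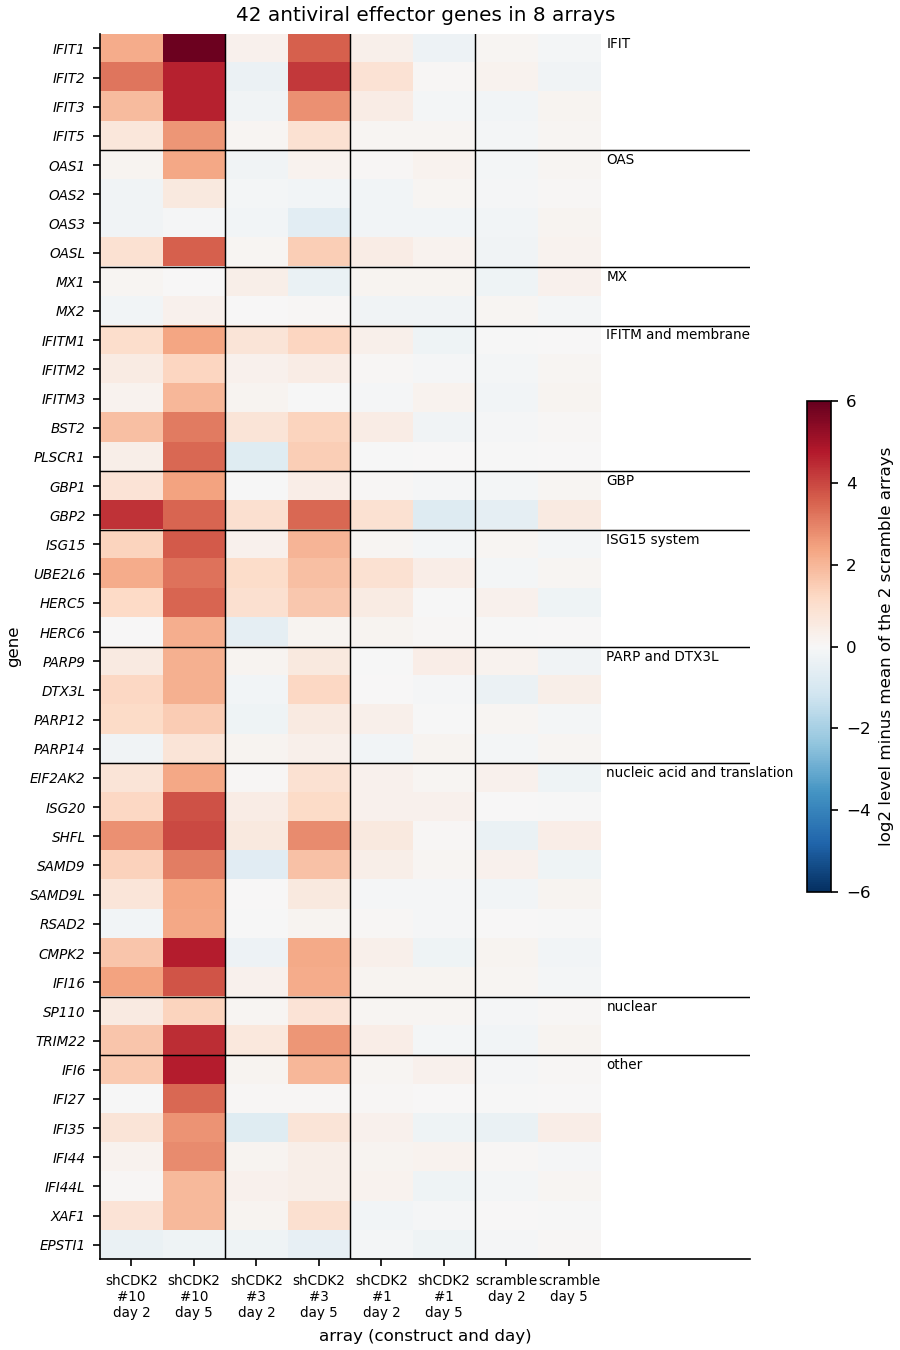
Log2 level of each of the 42 measured members (rows, by functional group) in each of the 8 arrays (columns, by construct and day), minus the mean of the 2 scramble arrays of that gene. Red is higher and blue lower than scramble; the column of shCDK2 #10 at day 5 is the reddest, with IFIT1 at the top, and the rows of MX1, MX2, OAS3 and EPSTI1 stay pale across all columns.

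Against scramble of the same day, 19 of 42 members were more than 1 log2 (2-fold) higher in shCDK2 #10 at day 2, where 5.11% of all genes were, and 36 at day 5 (4.4%). For shCDK2 #3 there were 3 such members at day 2 (0.767%) and 19 at day 5 (4.82%). In shCDK2 #1 they were 3 at day 2 (0.221%) and 0 at day 5 (0.232%). The median difference of the members was 0.92 log2 at day 2 and 2.45 log2 at day 5 in shCDK2 #10, 0.16 and 0.87 log2 in shCDK2 #3, and 0.19 and -0.02 log2 in shCDK2 #1. Over all genes the same medians lay between -0.17 and 0.04 log2. In shCDK2 #10 at day 5, 29 members were above 4-fold, where 1.42% of all genes were, and 15 were among the 100 genes with the highest difference, from IFIT1 at rank 11 to SAMD9 at rank 96. These are single arrays against single arrays, with no replicate of a construct on a day.

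**Figure D2:**
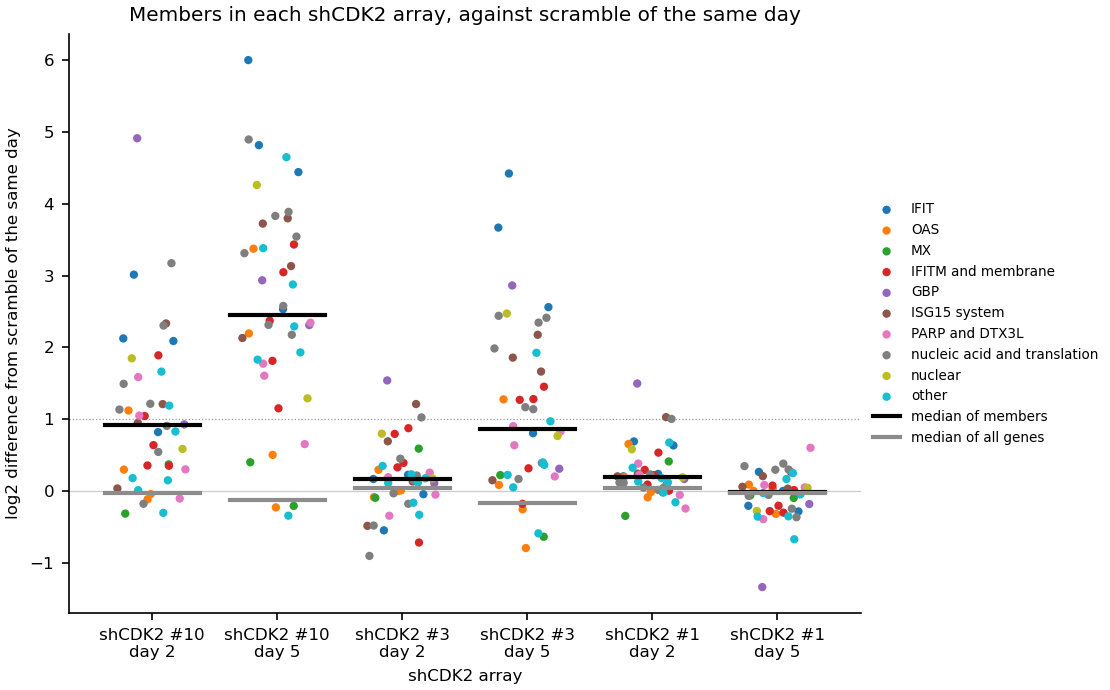
Log2 difference of each of the 42 members (points, coloured by functional group) from scramble of the same day, in each of the 6 shCDK2 arrays; black bars are the medians of the members, grey bars those of all 18132 genes, and the dotted line marks 1 log2. The points lift off 0 in shCDK2 #10 at both days and in shCDK2 #3 at day 5, and lie around 0 in shCDK2 #1 at day 5, with GBP2 the lowest point there.

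With construct and day as terms over all 8 arrays, 5 of 36 tested members were higher in shCDK2 #10 than in scramble and 0 were lower (limma, Benjamini-Hochberg adjusted p under 0.05 over 12845 genes), where 258 of all tested genes passed (2.01%). They are UBE2L6, SHFL, IFI16, BST2 and DTX3L, and 30 of 36 had an unadjusted p under 0.05, as did 2599 of all 12845 genes. The median change over all 42 members was 1.68 log2, from -0.33 (EPSTI1) to 4.06 (IFIT1), beside -0.09 log2 for all genes. The 5 that passed are not the 5 with the highest changes. The fit takes disagreement between the days as error, and their SEs lay between 0.32 log2 (DTX3L) and 0.54 log2 (SHFL), beside 1.02 log2 for IFIT1. Some members that did not pass had lower SEs than these 5. The call rests on few arrays. Without either array labelled scramble, 0 members passed and 0 genes did, and without the array labelled shCDK2 #10 at day 5 2 passed (1.42% of all genes). Each of these fits leaves a construct a single array, which the fit matches exactly. The error then comes from the other constructs, so such counts do not measure how the change repeats. The same holds without shCDK2 #10 at day 2. Leaving out both arrays of shCDK2 #3 or of shCDK2 #1 alters the error but not the shCDK2 #10 change. Then 9 members (7.47% of all genes) and 22 members (2.76%) passed.

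**Figure D3:**
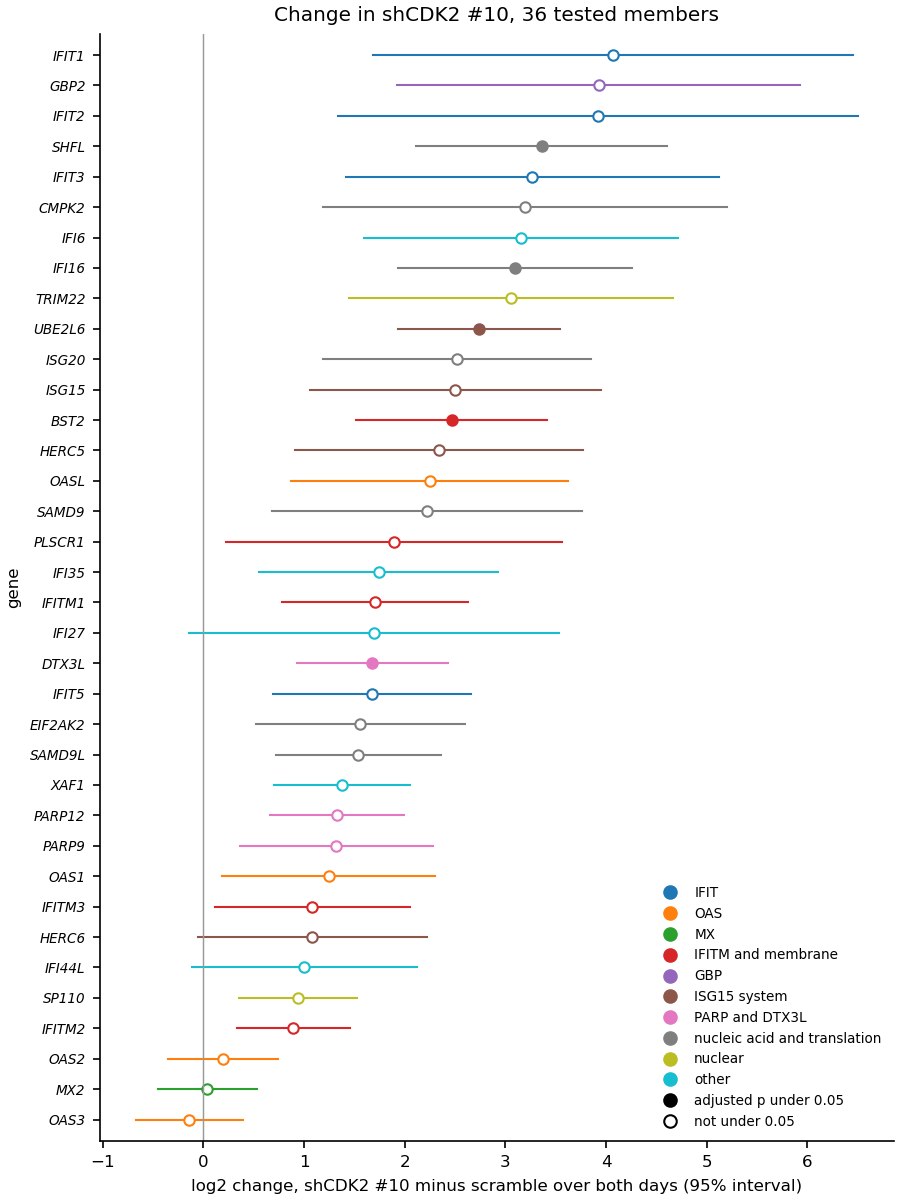
Log2 change of the 36 tested members in shCDK2 #10 minus scramble over both days (points) with 95% intervals from limma (lines), ordered by size and coloured by functional group; filled points passed an adjusted p of 0.05. The 5 filled points are SHFL, IFI16, UBE2L6, BST2 and DTX3L, and some open points have shorter intervals than these. The intervals of IFIT1, IFIT2 and GBP2 are wider and reach higher.

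In the IFIT family, all 4 members were higher in shCDK2 #10 at both days, and none passed the test over all genes. IFIT1, which binds viral RNA with an unmethylated cap, stood at 8.85 log2 at day 2 and 12.53 log2 at day 5 in the arrays labelled shCDK2 #10, at 6.89 and 10.19 log2 in those labelled shCDK2 #3 and at 6.93 and 6.32 log2 in those labelled shCDK2 #1, against 6.72 and 6.52 log2 in those labelled scramble. The day 5 difference of 6.00 log2 in shCDK2 #10 was the highest of any member, and shCDK2 #3 joined only at day 5. The change in shCDK2 #10 was 4.06 log2 (SE 1.02, limma adjusted p = 0.0860). IFIT5, which takes up RNA with a 5′ triphosphate and had the lowest change of the family, stood at 6.35 and 8.32 log2 in shCDK2 #10, at 5.76 and 6.59 log2 in shCDK2 #3 and at 5.77 and 5.78 log2 in shCDK2 #1, against 5.53 and 5.79 log2 in scramble. Its change was 1.68 log2 (SE 0.42, limma adjusted p = 0.0865). IFIT2 and IFIT3, partners of IFIT1 in 1 complex, had changes of 3.92 log2 (SE 1.11) and 3.27 log2 (SE 0.80). Within the family, IFIT2 alone reached nearly the same day 5 level in shCDK2 #3 as in shCDK2 #10. It stood at 10.43 log2 in shCDK2 #3 and 10.82 log2 in shCDK2 #10, against 6.00 log2 in the array labelled scramble. In its other probe set the day 5 differences were smaller, at 0.90 log2 in shCDK2 #3 and 1.22 log2 in shCDK2 #10. IFIT2, IFIT3, IFIT1 and IFIT5 are neighbours on chromosome 10.

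In the OAS family, OASL and OAS1 were higher in shCDK2 #10, and the probe sets standing for OAS2 and OAS3 were not, although other OAS2 probe sets were. A pair of probe sets annotated to OAS2 and OAS3 together, which cannot be given to either gene and stand for neither, were at 10.72 and 7.91 log2 in shCDK2 #10 at day 5, against 4.73 and 4.09 log2 in scramble. OASL, a family member without enzyme activity that binds the sensor RIG-I, stood at 8.15 log2 at day 2 and 10.80 log2 at day 5 in the arrays labelled shCDK2 #10, at 7.32 and 8.70 log2 in those labelled shCDK2 #3 and at 7.68 and 7.43 log2 in those labelled shCDK2 #1, against 7.03 and 7.43 log2 in those labelled scramble (change in shCDK2 #10 2.25 log2, SE 0.59, limma adjusted p = 0.0930). OAS3 stood at 6.85 and 6.97 log2 in shCDK2 #10, at 6.90 and 6.40 log2 in shCDK2 #3 and at 6.88 and 6.88 log2 in shCDK2 #1, against 6.89 and 7.20 log2 in scramble. The OAS3 ranges of shCDK2 #10 and shCDK2 #3 overlapped that of scramble, and both shCDK2 #1 arrays lay just below both scramble arrays. The change of -0.14 log2 in shCDK2 #10 had a 95% interval of -0.67 to 0.39 log2. OAS1 had a change of 1.25 log2 (SE 0.45, limma adjusted p = 0.180). At day 5 its brightest probe set stood at 9.49 log2 in shCDK2 #10 and at 7.38 log2 in shCDK2 #3, against 7.30 log2 in scramble. Other OAS1 probe sets differed more, 2 of them by 1.75 and 0.90 log2 in shCDK2 #10 at day 2 and by 2.07 and 1.11 log2 in shCDK2 #3 at day 5.

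The MX genes did not follow the other families. MX1, the cytoplasmic GTPase active against influenza virus, has a single probe set, below the dim limit in every array and so not tested, at 5.02 log2 at day 2 and 4.94 log2 at day 5 in the arrays labelled shCDK2 #10, at 5.24 and 4.50 log2 in those labelled shCDK2 #3 and at 5.07 and 5.05 log2 in those labelled shCDK2 #1, against 4.65 and 5.14 log2 in those labelled scramble. MX2, known for restricting HIV, was well above the limit, at 9.06 and 9.50 log2 in shCDK2 #10, at 9.28 and 9.32 log2 in shCDK2 #3 and at 9.03 and 9.04 log2 in shCDK2 #1, against 9.38 and 9.11 log2 in scramble. The change of MX2 in shCDK2 #10 was 0.04 log2 with a 95% interval of -0.46 to 0.54 log2. For MX1 the ranges of all 3 hairpins overlapped that of scramble. For MX2 those of shCDK2 #10 and shCDK2 #3 did, and both shCDK2 #1 arrays lay below both scramble arrays. With the mean of both MX2 probe sets in place of the brighter one its change was -0.09 log2.

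Among membrane proteins, BST2 passed the test and the IFITM genes did not. BST2, or tetherin, which holds budding virus on the cell surface, stood at 11.33 log2 at day 2 and 12.64 log2 at day 5 in the arrays labelled shCDK2 #10, at 10.31 and 10.88 log2 in those labelled shCDK2 #3 and at 9.97 and 9.29 log2 in those labelled shCDK2 #1, against 9.44 and 9.60 log2 in those labelled scramble. The ranges of shCDK2 #10 and shCDK2 #3 each lay above that of scramble, and shCDK2 #1 overlapped it. The change in shCDK2 #10 was 2.47 log2 (SE 0.41, limma adjusted p = 0.0408). IFITM2, the member of its family with the lowest change, stood at 13.22 and 13.99 log2 in shCDK2 #10, at 12.97 and 13.16 log2 in shCDK2 #3 and at 12.80 and 12.64 log2 in shCDK2 #1, against 12.58 and 12.84 log2 in scramble (0.89 log2, SE 0.24, limma adjusted p = 0.0985). IFITM1 had a change of 1.71 log2 (SE 0.40) and IFITM3 of 1.08 log2 (SE 0.41). These 3 IFITM genes are neighbours on chromosome 11 with like sequences, so their probe sets may share signal. PLSCR1, a phospholipid scramblase, stood at 11.58 log2 in shCDK2 #10 at day 5, against 8.14 log2 in scramble, and at 8.46 log2 at day 2, against 8.11 log2.

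GBP2, an interferon-induced GTPase, had its highest difference at day 2. It stood at 10.08 log2 at day 2 and 9.23 log2 at day 5 in the arrays labelled shCDK2 #10, at 6.71 and 9.15 log2 in those labelled shCDK2 #3 and at 6.66 and 4.95 log2 in those labelled shCDK2 #1, against 5.17 and 6.29 log2 in those labelled scramble. In the probe sets standing for them, GBP2, UBE2L6 and SHFL were the 3 members above scramble by more than 1 log2 at day 2 with every hairpin. SHFL was so only just in shCDK2 #1 and shCDK2 #3, by 1.00 and 1.02 log2. Its other probe set stood at 7.03 and 7.24 log2 there, against 6.77 log2 in scramble. At day 2 the other GBP2 probe set stood at 5.89 log2 in shCDK2 #1 and 5.17 log2 in shCDK2 #3, against 4.56 log2 in scramble. At day 5 the difference of GBP2 in shCDK2 #1 was -1.34 log2. The change in shCDK2 #10 was 3.93 log2 (SE 0.86, limma adjusted p = 0.0678). GBP1, its neighbour on chromosome 1, was dim and not tested, at 5.09 and 6.70 log2 in shCDK2 #10, at 4.27 and 4.70 log2 in shCDK2 #3 and at 4.33 and 4.21 log2 in shCDK2 #1, against 4.16 and 4.39 log2 in scramble.

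In the ISG15 system, UBE2L6 passed the test. UBE2L6, the E2 enzyme that carries ISG15, stood at 9.61 log2 at day 2 and 10.66 log2 at day 5 in the arrays labelled shCDK2 #10, at 8.48 and 9.19 log2 in those labelled shCDK2 #3 and at 8.30 and 7.79 log2 in those labelled shCDK2 #1, against 7.27 and 7.53 log2 in those labelled scramble. All 6 hairpin arrays lay above both scramble arrays. The change was 2.73 log2 in shCDK2 #10 (SE 0.35, limma adjusted p = 0.0189) and 1.44 log2 in shCDK2 #3 (SE 0.35, limma adjusted p = 0.274). ISG15 itself had a change of 2.50 log2 in shCDK2 #10 (SE 0.62, limma adjusted p = 0.0841) and stood at 10.29 and 12.61 log2 there, against 9.08 and 8.81 log2 in scramble. HERC5, the ligase that joins ISG15 to its targets, had a change of 2.34 log2 (SE 0.61, limma adjusted p = 0.0935). Its neighbour on chromosome 4, HERC6, had the lowest change of the group, at 6.17 and 8.32 log2 in shCDK2 #10, at 5.65 and 6.34 log2 in shCDK2 #3 and at 6.34 and 6.25 log2 in shCDK2 #1, against 6.13 and 6.19 log2 in scramble (1.08 log2, SE 0.49, limma adjusted p = 0.267). HERC6 was highest in shCDK2 #10 at day 5, and lowest in shCDK2 #3 at day 2.

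DTX3L, a ubiquitin ligase that works in a complex with PARP9, passed the test. It stood at 9.02 log2 at day 2 and 9.88 log2 at day 5 in the arrays labelled shCDK2 #10, at 7.62 and 9.01 log2 in those labelled shCDK2 #3 and at 7.81 and 7.72 log2 in those labelled shCDK2 #1, against 7.43 and 8.11 log2 in those labelled scramble. The change in shCDK2 #10 was 1.68 log2 (SE 0.32, limma adjusted p = 0.0495), the closest to the threshold of the 5. PARP9 had a change of 1.32 log2 (SE 0.41, limma adjusted p = 0.133), and PARP12, which acts on translation, a change of 1.33 log2 (SE 0.29, limma adjusted p = 0.0650). The probe set standing for PARP14 was dim and not tested, at 5.38 and 6.36 log2 in shCDK2 #10, at 5.74 and 5.91 log2 in shCDK2 #3 and at 5.43 and 5.76 log2 in shCDK2 #1, against 5.49 and 5.71 log2 in scramble.

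Among effectors that act on nucleic acids or translation, SHFL and IFI16 passed. SHFL, or shiftless, which blocks ribosomal frameshifting on viral RNA, stood at 10.22 log2 at day 2 and 11.43 log2 at day 5 in the arrays labelled shCDK2 #10, at 8.07 and 10.30 log2 in those labelled shCDK2 #3 and at 8.05 and 7.51 log2 in those labelled shCDK2 #1, against 7.05 and 7.88 log2 in those labelled scramble (change in shCDK2 #10 3.36 log2, SE 0.54, limma adjusted p = 0.0385). IFI16, a nuclear sensor of DNA, stood at 9.54 and 10.87 log2 in shCDK2 #10, at 7.38 and 9.32 log2 in shCDK2 #3 and at 7.27 and 7.27 log2 in shCDK2 #1, against 7.23 and 6.98 log2 in scramble (3.10 log2, SE 0.50, limma adjusted p = 0.0390). Both genes were already more than 2 log2 above scramble at day 2 in shCDK2 #10, and both shCDK2 #3 arrays lay above both scramble arrays. CMPK2, a mitochondrial nucleotide kinase, had a change of 3.19 log2 (SE 0.86), ISG20, an RNA exonuclease, of 2.52 log2 (SE 0.57), and SAMD9, which restricts poxviruses, of 2.22 log2 (SE 0.66), with adjusted p between 0.0722 and 0.120. SAMD9L, the neighbour of SAMD9 on chromosome 7, had a change of 1.54 log2 (SE 0.35), and EIF2AK2, the kinase PKR that halts translation on double-stranded RNA, of 1.56 log2 (SE 0.44). CMPK2 and SAMD9L passed the filter on dim genes only with the shCDK2 #10 arrays in their mean. In scramble at day 2 they stood at 5.37 and 5.48 log2, below the dim limit. RSAD2, or viperin, which makes a chain-terminating nucleotide and lies beside CMPK2 on chromosome 2, was dim and not tested, at 4.25 and 6.73 log2 in shCDK2 #10, at 4.40 and 4.59 log2 in shCDK2 #3 and at 4.48 and 4.36 log2 in shCDK2 #1, against 4.43 and 4.42 log2 in scramble. In the probe sets standing for them the pair differed at day 2. CMPK2 was then 1.49 log2 above scramble in shCDK2 #10 and RSAD2 differed from scramble by -0.18 log2. Their other probe sets did not show this contrast, with differences of 0.05 and 0.06 log2 for CMPK2 and 0.34 log2 for RSAD2. The other RSAD2 probe set stood at 5.25 log2 in shCDK2 #3 at day 5, against 3.75 log2 in scramble.

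Of the remaining members, TRIM22 and IFI6 had the highest changes in the probe sets standing for them. TRIM22, a nuclear ubiquitin ligase, stood at 7.68 log2 at day 2 and 10.43 log2 at day 5 in the arrays labelled shCDK2 #10, at 6.63 and 8.64 log2 in those labelled shCDK2 #3 and at 6.41 and 5.89 log2 in those labelled shCDK2 #1, against 5.83 and 6.17 log2 in those labelled scramble (3.06 log2, SE 0.69, limma adjusted p = 0.0722). SP110, a nuclear body protein, stood at 8.32 and 9.13 log2 in shCDK2 #10, at 7.91 and 8.60 log2 in shCDK2 #3 and at 7.92 and 7.88 log2 in shCDK2 #1, against 7.73 and 7.84 log2 in scramble (0.94 log2, SE 0.25, limma adjusted p = 0.0985). IFI6, a membrane protein that protects cells against flaviviruses, stood at 9.05 and 12.20 log2 in shCDK2 #10, at 7.62 and 9.47 log2 in shCDK2 #3 and at 7.57 and 7.71 log2 in shCDK2 #1, against 7.39 and 7.55 log2 in scramble (3.16 log2, SE 0.67, limma adjusted p = 0.0623). SP110 had the lowest change of the nuclear group. All 6 TRIM22 probe sets were more than 1 log2 higher in shCDK2 #10 than in scramble at day 5. The TRIM22 probe set brightest in both scramble arrays, which did not stand for the gene, differed by only 1.14 log2 there. At day 2 it differed by 0.35 log2 in shCDK2 #10. In shCDK2 #3 at day 5 it differed by -0.23 log2, while the other TRIM22 probe sets were above scramble. IFI35 had a change of 1.74 log2 (SE 0.51) and XAF1, a pro-apoptotic partner of XIAP, of 1.38 log2 (SE 0.29). EPSTI1 was dim and not tested, at 4.37 and 4.49 log2 in shCDK2 #10, at 4.51 and 4.24 log2 in shCDK2 #3 and at 4.66 and 4.48 log2 in shCDK2 #1, against 4.68 and 4.84 log2 in scramble, the lowest change of all members at -0.33 log2.

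The members differed in timing within shCDK2 #10. Against scramble of the same day, 19 were more than 1 log2 higher at both days, 17 at day 5 but not at day 2, 0 at day 2 alone and 6 at neither. Of the 17, 9 differed from scramble by less than 0.5 log2 at day 2. These were OAS1, IFITM3, PLSCR1, HERC6, PARP9, RSAD2, IFI27, IFI44 and IFI44L. In 7 of the 9 no probe set was 0.5 log2 or more above scramble at day 2, but in PARP9 another was 2.47 log2 above it, and in OAS1 another 1.75 log2. IFI27, a mitochondrial protein used as a blood marker of viral infection, is the sharpest case, at 6.90 log2 at day 2 and 10.36 log2 at day 5 in the arrays labelled shCDK2 #10, at 7.00 and 7.03 log2 in those labelled shCDK2 #3 and at 7.02 and 6.95 log2 in those labelled shCDK2 #1, against 6.89 and 6.98 log2 in those labelled scramble. In this probe set only shCDK2 #10 at day 5 stands apart from the other 7 arrays. In the other IFI27 probe set shCDK2 #3 at day 5 was higher too, at 7.25 log2, against 6.45 log2 in scramble. IFI44, which is dim, showed the same shape, at 7.38 log2 in shCDK2 #10 at day 5 and between 4.50 and 4.90 log2 in the other arrays. At the other end SHFL differed from scramble by 3.17 log2 at day 2 and 3.54 log2 at day 5, DTX3L by 1.59 and 1.77 log2, and GBP2 by 4.92 and 2.94 log2. The other GBP2 probe set differed by 3.65 log2 at day 2 and by only 0.57 log2 at day 5. In 38 of 42 members the difference was higher at day 5 than at day 2.

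**Figure D4:**
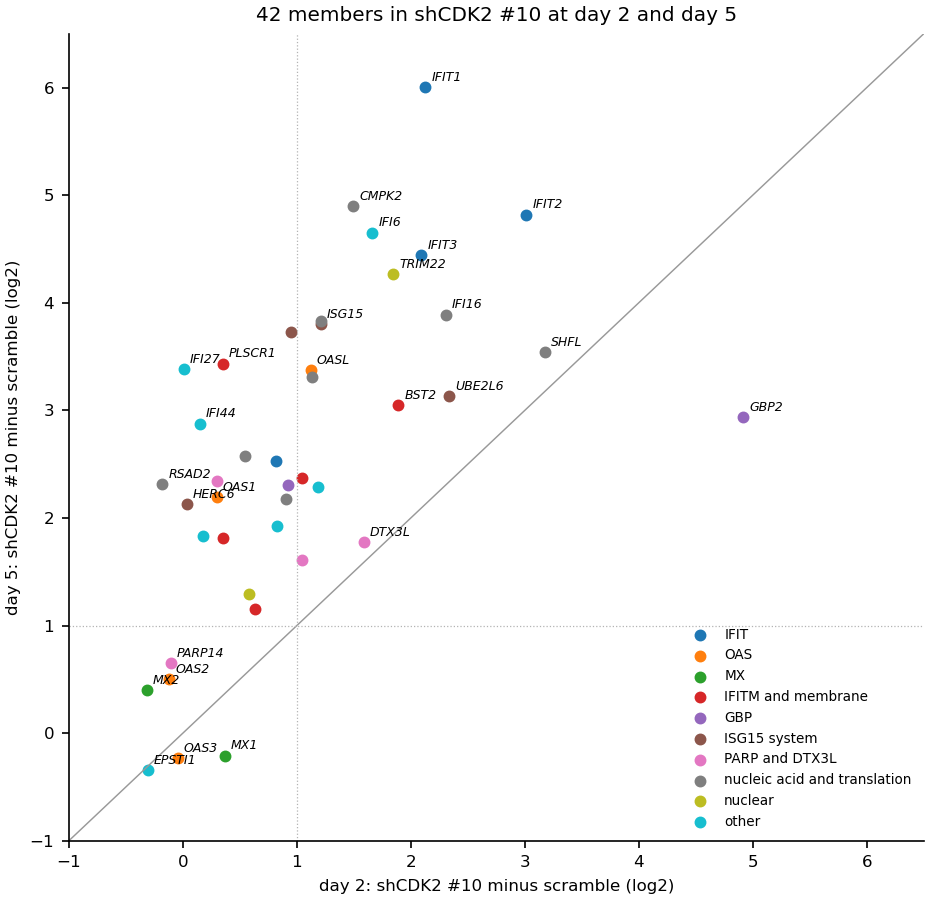
Log2 difference of each of the 42 members between shCDK2 #10 and scramble at day 2 (horizontal) and at day 5 (vertical), coloured by functional group; the solid line marks equal differences and the dotted lines 1 log2. Nearly all points lie above the solid line, GBP2 lies far to its right, and IFI27, RSAD2, HERC6 and IFI44 stand near 0 at day 2.

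Set against day 2 of the same construct, 31 members were more than 1 log2 higher at day 5 in shCDK2 #10 (1.81% of all genes), 15 in shCDK2 #3 (4.46%), 0 in shCDK2 #1 (0.182%) and 1, GBP2, in scramble (0.232%). The median member change between the days was 1.62 log2 in shCDK2 #10, 0.70 log2 in shCDK2 #3 and -0.11 log2 in shCDK2 #1, against 0.16 log2 in scramble. Over the hairpins together the median was 0.80 log2, beside -0.04 log2 for all genes, and 0 of 36 members passed (limma, 0.0% of all genes). None had an unadjusted p under 0.05, where 260 genes did. The difference of the shCDK2 change between the days had a median of 0.66 log2 over the members, and 0 of 36 passed (0.0% of all genes), with none at an unadjusted p under 0.05.

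The hairpins were also taken as repeats of 1 knockdown. The median member difference from scramble was 0.40 log2 at day 2, 1.13 log2 at day 5 and 0.69 log2 over both, beside 0.03, -0.11 and -0.05 log2 for all genes. In limma 0 of 36 members passed at day 2 (0.0% of all genes), at day 5 (0.0%) or over both (0.0%), and none had an unadjusted p under 0.05 in any of them. For IFIT1 at day 5 the difference was 3.16 log2 with a 95% interval of -1.66 to 7.97 log2. This fit takes the hairpin arrays' spread for the lone scramble array too.

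Between hairpins, 3 pairs were compared. Members were higher in shCDK2 #10 than in shCDK2 #1 by a median of 1.64 log2, and 0 of 36 passed while 42 of all genes did (0.327%). The lowest adjusted p was that of UBE2L6 (2.09 log2, SE 0.35, limma adjusted p = 0.0661), and 30 of 36 had an unadjusted p under 0.05, where 15.8% of all genes did. Without both arrays of shCDK2 #3, which alters the error but not this change, 8 members passed (4.76% of all genes). Against shCDK2 #3, shCDK2 #10 was higher by a median of 1.25 log2, with 0 of 36 passing (0.0% of all genes) and 20 at an unadjusted p under 0.05, where 5.76% of all genes were. PARP12 had the lowest adjusted p there (1.18 log2, 95% interval 0.52 to 1.85 log2, limma adjusted p = 0.750). shCDK2 #3 was above shCDK2 #1 by a median of 0.36 log2, with 0 of 36 passing (0.0%) and 4 at an unadjusted p under 0.05, near the 1541 of 12845 genes (12.0%) that had one. At day 5 the probe set standing for each of the 42 members was higher in shCDK2 #10 than in shCDK2 #3, in GBP2 only just, at 9.23 against 9.15 log2, while its other probe set stood at 6.32 against 7.69 log2. No single hairpin other than shCDK2 #10 gave a call against scramble, with 0 of 36 for shCDK2 #3 (4 of all genes, 0.0311%) and 0 of 36 for shCDK2 #1 (0.0%), and 7 and 0 members at an unadjusted p under 0.05, beside 9.47% and 1.33% of all genes. The median change was 0.47 log2 in shCDK2 #3 and 0.10 log2 in shCDK2 #1. In shCDK2 #3 it rested on day 5. All these hairpin comparisons with scramble share the same 2 arrays.

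Probe sets of 1 gene did not always agree. The 42 members had 110 probe sets of their own, of which 86 were more than 1 log2 higher in shCDK2 #10 than in scramble at day 5 (78.2%). In 28 members every probe set was above 1 log2 and in 4 (OAS3, MX1, MX2 and EPSTI1) none of their own was, and OAS3, MX1 and EPSTI1 have 1 each. In OAS2 and PARP14 the probe set standing for the gene was not, and others were. OAS2 had 5 probe sets, and the brightest stood at 7.27 log2 in shCDK2 #10 at day 5, against 6.77 log2 in scramble, while another stood at 8.62 log2, against 5.44 log2. PARP14 had 6 probe sets, with 6.36 log2 against 5.71 log2 for the brightest and 8.23 log2 against 4.33 log2 for another. In both genes the brightest probe set thus differed less than others of the same gene. Among called members, all 3 probe sets of IFI16 and both of SHFL were above 1 log2, and UBE2L6 has 1. BST2 had 3 of 4 above 1 log2, with the lowest at 0.029 log2, and DTX3L 2 of 3, with the lowest at 0.22 log2. In CMPK2 only the brightest of 3 was above 1 log2. OAS1 had 4 probe sets with differences from 2.07 to 5.08 log2, RSAD2 2 with 2.31 and 4.72 log2, and XAF1 7 of which 2 were above 1 log2.

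**Figure D5:**
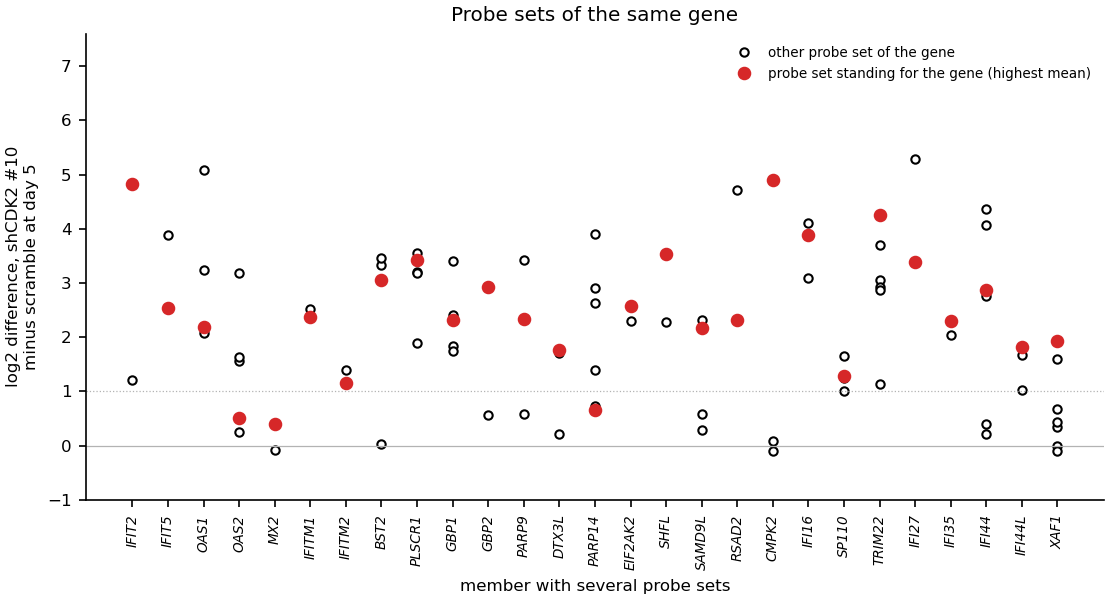
Log2 difference between shCDK2 #10 and scramble at day 5 for every probe set of the 27 members that have several; red points stand for the gene elsewhere in the report, open circles are its other probe sets, and the dotted line marks 1 log2. In OAS2 and PARP14 the red point lies below the dotted line and several open circles above it, and in MX2 both points lie near 0.

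Upstream genes of the pathway were read from lists of 40 genes, chosen with earlier results of these data known. Of these, 36 were measured, 27 tested, and 3 passed in shCDK2 #10 against scramble, all higher, beside 2.01% of all tested genes. The 3 are IFIH1, or MDA5, a sensor of long double-stranded RNA (2.44 log2, SE 0.43, limma adjusted p = 0.0456), IRF2, a factor that binds the same promoter element (1.20 log2, SE 0.19, limma adjusted p = 0.0368), and UBA7, the E1 enzyme that activates ISG15 for UBE2L6 (1.32 log2, SE 0.21, limma adjusted p = 0.0377). UBA7 stood at 9.04 log2 at day 2 and 9.03 log2 at day 5 in the arrays labelled shCDK2 #10, at 8.13 and 8.62 log2 in those labelled shCDK2 #3 and at 7.92 and 7.82 log2 in those labelled shCDK2 #1, against 7.57 and 7.88 log2 in those labelled scramble. RIGI, the sensor of RNA with a 5′ triphosphate, had a change of 3.16 log2 (SE 0.77, limma adjusted p = 0.0814), IRF9 of 2.83 log2 (SE 0.70, limma adjusted p = 0.0842) and IRF7, the factor that amplifies interferon production, of 1.95 log2 (SE 0.38, limma adjusted p = 0.0513), and none of the 3 passed. Of the receptor chains, IFNGR2 had a change of 1.65 log2 (SE 0.32, limma adjusted p = 0.0505) and IFNGR1 of 1.51 log2 (SE 0.38, limma adjusted p = 0.0842). IFNAR2 had a change of 0.88 log2 (SE 0.24, limma adjusted p = 0.102). Of the interferons, IFNB1, IFNA2 and IFNG were dim. IFNB1 lay between 4.70 and 5.18 log2, IFNA2 between 2.91 and 3.22 log2 and IFNG between 3.94 and 4.40 log2 over the 8 arrays. IFNL1 was tested and lay between 5.76 and 6.51 log2 (0.03 log2 in shCDK2 #10 against scramble, SE 0.23, limma adjusted p = 0.958). IFNB1 had its highest value, 5.18 log2, in shCDK2 #10 at day 5, against 4.71 log2 in scramble. In shCDK2 #3 and in shCDK2 #1, 0 of the 27 tested genes passed against scramble.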

How the data were processed

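RNA from transduced NB4 cells was measured on 8 Affymetrix arrays, 1 per construct and day. The deposited values are on a log2 scale, as read from their range, with Partek named in the submitters' processing notes and the normalization not given in the sources used here. Of 49395 probe sets, 44994 are annotated to 1 gene, and symbols were updated by Entrez ID. A gene's brightest probe set by mean stood for it (18132 genes), and the 12845 genes whose mean exceeded the 40th percentile were tested in limma 3.58.1 (R 4.3.3), two-sided, with Benjamini-Hochberg adjustment over all of them. Constructs were compared with construct and day as terms, and days with the 3 hairpins as repeats, which assumes that the lone scramble array varies like them. No label says that arrays come from separate cultures, so p-values reflect the spread among these arrays alone, whose number limits the precision. Members and gene lists were chosen with earlier results of these data known. Values in every array were given for called members and for the highest and lowest shCDK2 #10 change of each functional group, pathway genes were named among the highest absolute changes of each list, and other genes named here were chosen after their values were seen. Alternatives were quantile normalization, median centring, other filters, averaged probe sets, a prior variance trend, a replicate block and leaving out each array. The fits were checked on simulated data.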

Additional observations from a re-analysis of the deposited data

Results flagged for a closer look

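A pair of genes had signal in probe sets that the comparisons did not use. In OAS2 a dimmer probe set was 3.18 log2 higher in shCDK2 #10 than in scramble at day 5, while the brightest, which stands for the gene, differed by 0.50 log2. In PARP14 a dimmer probe set was 3.90 log2 higher, while the brightest differed by 0.65 log2.

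The MX1 difference from scramble had opposite signs on the 2 days. At day 2 the arrays labelled shCDK2 #10, shCDK2 #3 and shCDK2 #1 were all above scramble, by 0.37, 0.59 and 0.41 log2, and at day 5 all were below it, with differences of -0.21, -0.64 and -0.10 log2. The day 5 difference minus the day 2 difference was -0.77 log2. It was not tested, since MX1 is dim in every array, and 1 scramble array stands on each day. No group held 4 arrays, so single arrays were not screened as outliers.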

How the results depend on the processing

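In shCDK2 #10 against scramble, where 5 members were called, median centring gave 1 call and probe sets averaged per gene gave 3. Quantile normalization, other filters and a variance trend gave 4 to 6. These numbers count all members called, not how many of the 5 stayed called. Leaving out 1 array at a time gave 0 to 25 members called in that comparison, 0 to 23 in shCDK2 #10 against shCDK2 #1 and 0 to 6 in shCDK2 #10 against shCDK2 #3. The same step gave medians of the members from -0.45 to 0.62 log2 in shCDK2 #1 against scramble and from 0.36 to 2.00 log2 in shCDK2 #10 against shCDK2 #3. The sign of the shCDK2 #10 change turned for 7 members, with ranges of -0.027 to 3.42 log2 for IFI27, -0.22 to 0.30 log2 for MX2, -0.14 to 0.52 log2 for OAS2 and -0.35 to 0.078 log2 for OAS3, and, among dim members, -0.31 to 0.47 log2 for MX1, -0.0978 to 0.64 log2 for PARP14 and -0.16 to 2.30 log2 for RSAD2. The mean of both probe sets gave -0.086 log2 for MX2. The cause was not tested. Deviations of the same hairpin from the mean of the 3 hairpins of a day correlated between the days at 0.715 (#1), -0.228 (#3) and 0.432 (#10). Not every array correlated best with its own number. Deviations from a shared mean are bound to each other, so they cannot decide whether the days pair by hairpin. The construct comparisons take the 2 days of a construct as repeats. With the hairpin as a replicate block, 0 members were called between the days, with medians of 0.80 and 0.66 log2. Leaving out a scramble array leaves that day without a comparison. Single arrays, dim probe sets and CDK2 levels that go against 2 labels limit every result.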
